A study of Mus musculus with 8 samples.

Results

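The CC chemokines examined here were 10 genes, Ccl2, Ccl3, Ccl4, Ccl5, Ccl6, Ccl7, Ccl8, Ccl9, Ccl12 and Ccl24, of 41388 genes counted. They were taken by name, after the Ensembl identifiers of the count tables had been matched to the GENCODE M21 annotation of the mouse genome build GRCm38, and all 10 were found and passed the filter on low counts. The cells came from the epididymal white fat of 4 male MitoFat mice on normal chow, a strain that carries an adipocyte-specific reporter of mitochondria (mtD2). From each mouse, live CD45+ F4/80+ CD64+ cells of the collagenase-freed stromal vascular fraction were sorted into a population without the reporter (mtD2-) and one with it (mtD2+), which gave 4 pairs of libraries. The reporter marks mitochondria of adipocytes, so that mtD2+ macrophages are those in which it was detected, and the comparison asks how they differed from mtD2- cells of the same fat pad. The promoter that drives the reporter, the age of the mice and the number of sorted cells are stated in none of the labels. RNA was amplified with the SMARTer Ultra-Low kit before sequencing.

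CC chemokines are small secreted proteins with a pair of adjacent cysteines near the start of the mature chain. They bind G protein-coupled receptors on leukocytes, are held on the glycosaminoglycans of the tissue, and set the direction in which these cells move. In adipose tissue, macrophages both make and answer them. Ccl2, Ccl7 and Ccl12 act through CCR2, the receptor that brings monocytes out of the bone marrow and into tissue. Ccl8 acts in the mouse mainly through CCR8. Ccl3, Ccl4 and Ccl5 are inflammatory chemokines that attract T cells and monocytes, and Ccl3 and Ccl5 act through CCR1. Ccl6 and Ccl9 are rodent chemokines that also act through CCR1, and Ccl24 attracts eosinophils through CCR3. Many of these genes are switched on by NF-kB after Toll-like receptor or TNF signals.

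Of the 10 genes, 9 lie on chromosome 11 in a pair of clusters. Ccl2 (82035571 to 82037453), Ccl7 (82045712 to 82047525), Ccl12 (82101845 to 82103400) and Ccl8 (82115185 to 82116799) share 81.2 kb on the plus strand. Ccl5 (83525778 to 83530518), Ccl9 (83572919 to 83578636), Ccl6 (83587882 to 83593087), Ccl3 (83647844 to 83649355) and Ccl4 (83662584 to 83664683) share 139 kb that begins 1.41 Mb further on, all on the minus strand but Ccl4. Ccl24 lies on chromosome 5 (135569937 to 135573043, minus strand). All 10 are protein-coding genes, and no counted exon of theirs overlapped an exon of another gene in the count tables.

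The libraries held 18462287 to 27464399 counts. Levels of a gene are given as CPM, the count of a gene relative to the total of its library after TMM scaling, and fold changes are log2 values of mtD2+ over mtD2- from edgeR's quasi-likelihood test with the mouse as a block. All adjusted p-values are Benjamini-Hochberg values over the 13933 genes tested, unless another test is named, and a gene was called under 0.05. The mtD2- library of mouse 4 stood apart from the rest on the first principal component of all genes (-81.1, against -28.3 to 60.5), which held 26.4% of the variance. On the second component the mtD2- library of mouse 3 stood apart (78.4, against -53.3 to 27.5). Values without mouse 4 are given beside the members and lists whose calls changed without it. Of the genes behind the sort, Adgre1, which encodes F4/80, fell (log2 -0.55, SE 0.12, adjusted p = 0.0336), a call lost without the block (0.0737) and without mouse 1 (0.165), 3 (0.160) or 4 (0.0764). Fcgr1, which encodes CD64, stood at -0.44 (SE 0.11, adjusted p = 0.0554), with 157 to 164 CPM in mtD2- and 102 to 138 CPM in mtD2+. It was called lower by edgeR with library totals (adjusted p = 0.0437) and with a filter at 1 CPM (0.0477). DESeq2 (0.00963) and limma voom (0.0354) also called it lower, and the other alternatives did not.

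In mtD2+ macrophages 3 of the 10 CC chemokines rose and none fell. They were Ccl2, Ccl8 and Ccl7, which lie in the Ccl2 to Ccl8 cluster. Ccl3 and Ccl4 had log2 fold changes of 0.82 and 0.73 that did not pass the test, while Ccl5, Ccl6, Ccl9, Ccl12 and Ccl24 lay between -0.17 and 0.43. The median of the 10 was 0.53, against 0.00 for all genes tested (-0.000641). Calls in either direction made up 5.5% of all genes tested and calls of higher genes 3.72%, against 3 of 10 here. Over all genes 519 were higher and 248 lower (67.7% higher), and 407 and 349 (53.8%) when libraries were scaled by their totals alone. In bulk RNA a larger number of cells that express a gene and more RNA per cell cannot be told apart.

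**Figure D1:**
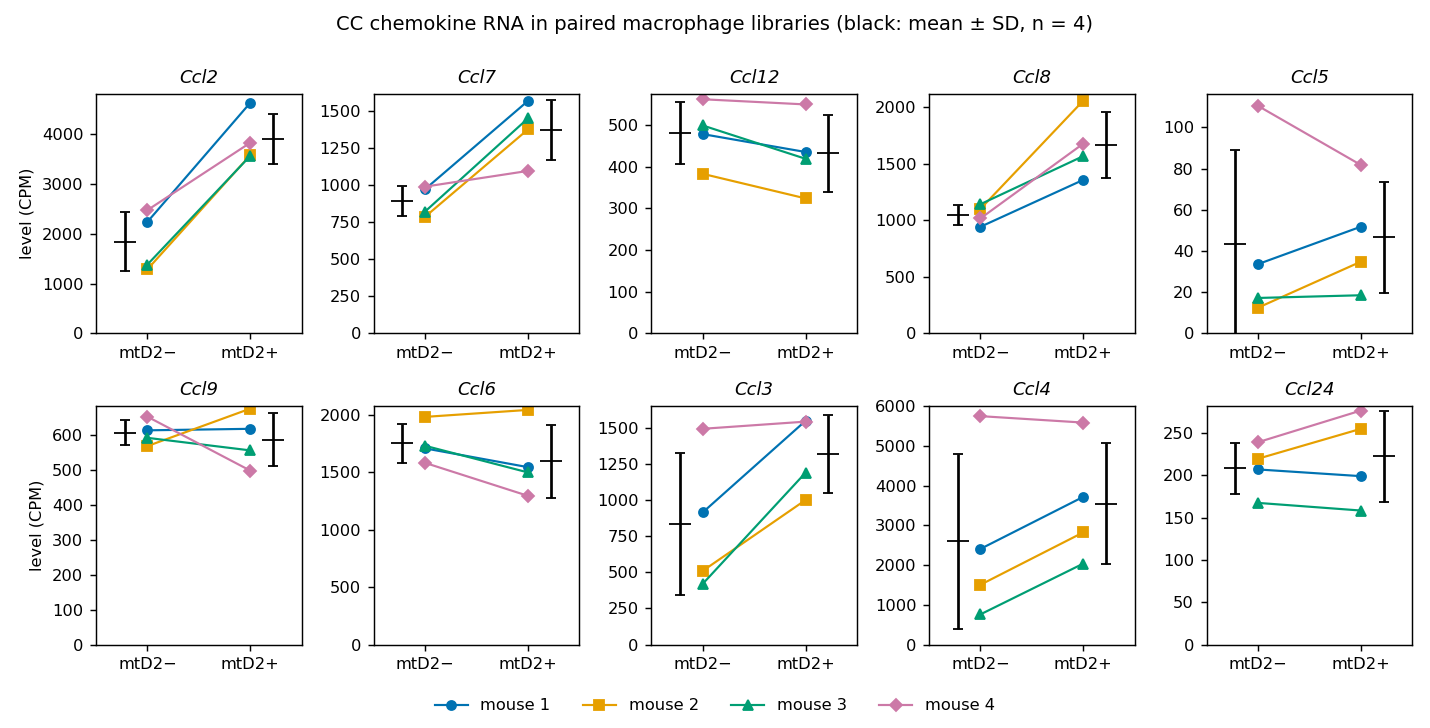
Levels of the 10 CC chemokine RNAs in CPM (y axis, linear from 0) in the mtD2- and mtD2+ library of each mouse (x axis). Coloured lines join the libraries of 1 mouse, and black marks give the mean and SD of the 4 libraries, with bars that would pass below 0 ending at the axis. For Ccl2, Ccl7 and Ccl8 every mtD2+ library lay above every mtD2- library.

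Ccl2, the monocyte chemoattractant, was the member that changed most. It stood at 2241, 1286, 1382 and 2477 CPM in the mtD2- libraries of mice 1 to 4. In the mtD2+ libraries it stood at 4638, 3584, 3571 and 3834 CPM. All 4 mtD2+ libraries were higher than the highest mtD2- library, so the groups did not overlap. The mtD2- libraries themselves fell into mice 2 and 3, which were low, and mice 1 and 4, which were high. The mean rose from 1846 ± 601 to 3907 ± 502 CPM (SD, n = 4), a 2.19-fold rise (log2 1.13, SE 0.15, edgeR adjusted p = 0.00495). Within mice the ratio was 2.07, 2.79, 2.58 and 1.55. The call held under each of the 12 alternative settings, with log2 fold changes of 1.02 to 1.30 and adjusted p-values of 1.26e-14 to 0.0482.

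Ccl7 starts 8.26 kb after the end of Ccl2 and encodes another CCR2 ligand. Its levels were 971.1, 785.2, 820.5 and 988.5 CPM in mtD2- and 1566, 1374, 1449 and 1095 CPM in mtD2+. The groups did not overlap, but the mtD2+ library of mouse 4 was only 1.11 times its mtD2- partner, against 1.61 to 1.77 in the other mice. The gene rose by 0.62 on the log2 scale (SE 0.13, edgeR adjusted p = 0.0330). That call was lost without mouse 1, 2 or 3 (adjusted p of 0.108 to 0.168) and kept without mouse 4 (log2 0.77, adjusted p = 0.00563).

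Ccl12, also a CCR2 ligand, did not pass the test. It was lower in mtD2+ in every mouse, as were 15.99% of all genes tested. It stood at 478.5, 383.1, 499.3 and 562.3 CPM in mtD2- and at 435.5, 324.0, 419.2 and 549.8 CPM in mtD2+. The groups overlapped, and the order of the mice was nearly the same in both, with mouse 4 highest and mouse 2 lowest. Its log2 fold change was -0.17 (SE 0.10, edgeR adjusted p = 0.369), and -0.22 to -0.13 under the alternatives.

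Ccl8, 11.8 kb beyond Ccl12, stood at 941.2, 1099, 1141 and 1015 CPM in mtD2- and at 1357, 2057, 1567 and 1677 CPM in mtD2+. The mtD2- libraries were close together (coefficient of variation 8.48%), and all mtD2+ libraries lay above them. The gene rose 1.57-fold (log2 0.65, SE 0.11, edgeR adjusted p = 0.0141). Unlike Ccl7, it was well above its partner in mouse 4 too, with ratios of 1.44, 1.87, 1.37 and 1.65 in mice 1 to 4. The call was kept without mouse 4 (log2 0.63, adjusted p = 0.0249) and lost without mouse 1, 2 or 3, where the log2 value was 0.57 to 0.73 and the adjusted p 0.0543 to 0.0704. Members with groups that did not overlap, and with mtD2+ higher, were these 3 of 10, against 6.55% of all genes tested.

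**Figure D2:**
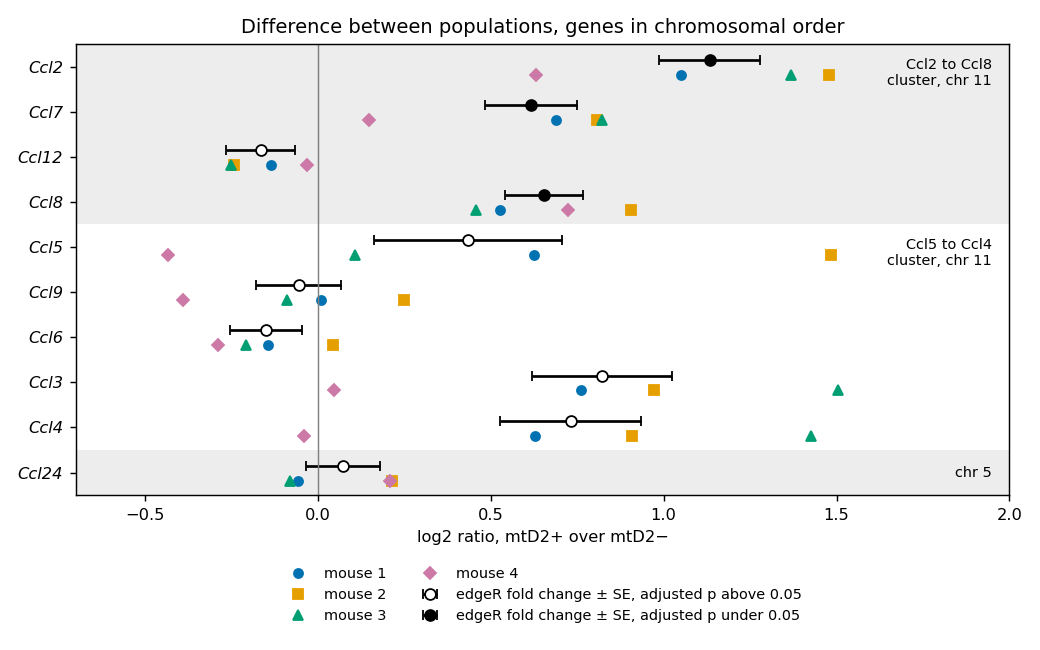
Log2 ratio of mtD2+ over mtD2- (x axis) for the 10 genes in chromosomal order (y axis), with the edgeR fold change and SE in black, filled where the adjusted p was under 0.05, and the CPM ratio of each mouse in colour. Ccl12, at -0.17, sits between Ccl7 at 0.62 and Ccl8 at 0.65.

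Ratios between 2 genes of a library do not depend on how libraries are scaled. The log2 ratio of Ccl2 to Ccl12 was higher in mtD2+ than in mtD2- by 1.19, 1.72, 1.62 and 0.66 in mice 1 to 4. That of Ccl7 to Ccl12 was higher by 0.83, 1.05, 1.07 and 0.18, and that of Ccl8 to Ccl12 by 0.66, 1.15, 0.71 and 0.76. The means were 1.30 ± 0.48, 0.78 ± 0.42 and 0.82 ± 0.22 (SD, n = 4). These pairs were chosen after their values were known, and their direction follows from the values of each gene given before, so they are a description with no test.

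Ccl8 and Ccl12 are neighbours of the same strand, 1 of which rose and 1 of which did not, so the 250 bases before their RefSeq start sites (build GRCm38.p6) are shown for comparison, with Ccl3 of the other cluster. The windows are chr11:82114935-82115184 (plus strand) for Ccl8, chr11:82101595-82101844 (plus strand) for Ccl12 and chr11:83649379-83649628 (minus strand) for Ccl3. The counted span of Ccl3 ends at 83649355, short of its RefSeq start, whereas the spans of Ccl8 and Ccl12 begin at theirs. Capitals mark matches to the motifs named in the next paragraph.
Ccl8: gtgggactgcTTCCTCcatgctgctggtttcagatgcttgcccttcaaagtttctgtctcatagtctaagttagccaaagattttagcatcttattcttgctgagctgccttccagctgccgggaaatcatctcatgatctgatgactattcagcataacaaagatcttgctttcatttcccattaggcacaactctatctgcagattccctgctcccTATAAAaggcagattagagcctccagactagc
Ccl12: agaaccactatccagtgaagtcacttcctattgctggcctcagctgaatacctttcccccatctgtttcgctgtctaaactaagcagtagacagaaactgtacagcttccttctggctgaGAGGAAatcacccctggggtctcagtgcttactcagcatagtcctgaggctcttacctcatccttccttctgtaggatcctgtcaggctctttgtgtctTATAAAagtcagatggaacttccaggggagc
Ccl3: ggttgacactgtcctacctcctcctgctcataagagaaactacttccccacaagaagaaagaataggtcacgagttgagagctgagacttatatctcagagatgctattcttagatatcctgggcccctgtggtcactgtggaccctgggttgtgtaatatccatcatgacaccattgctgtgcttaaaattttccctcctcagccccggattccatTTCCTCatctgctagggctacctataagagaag

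RefSeq windows were at hand for 5 of the 10 genes, Ccl3, Ccl6, Ccl8, Ccl9 and Ccl12. They were searched on both strands for 5 motifs, which were the TATA box TATAAA, NF-kB as GGGANNNNCC, AP-1 as TGANTCA, the interferon response element as GAAANNGAAA and the PU.1 core GAGGAA. Ccl8 and Ccl12 had nearly the same layout near the start, with TATAAA 32 to 27 bases before it in Ccl8 and 31 to 26 bases before it in Ccl12. A TATAAA match in either direction was in 12.4% of 32851 windows of this length. The PU.1 core lay 240 to 235 bases before the start of Ccl8, 130 to 125 before that of Ccl12 and 33 to 28 before that of Ccl3, as TTCCTC in Ccl8 and Ccl3 (23.3% of windows). Ccl9 had TATAAA 92 to 87 bases before its start, TTTATA overlapping it at 94 to 89 and again at 224 to 219, and the AP-1 match TGAATCA at 53 to 47 (6.75% of windows). Ccl6 had none of the 5 motifs in its window. The letters searched for NF-kB and for the interferon response element were in none of the 5 windows, and were in 17.6% and 2.98% of all windows.

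Ccl3 and Ccl4, also known as the macrophage inflammatory proteins 1 alpha and beta, lie side by side and point away from each other. Ccl3 stood at 915.4, 510.3, 420.3 and 1495 CPM in mtD2- and at 1551, 1002, 1191 and 1545 CPM in mtD2+. Ccl4 stood at 2408, 1505, 758.5 and 5754 CPM in mtD2- and at 3721, 2826, 2039 and 5592 CPM in mtD2+. For both genes mouse 4 had the highest level among the mtD2- libraries, as high as its mtD2+ partner, so the groups overlapped, while mice 1 to 3 had 1.55 to 2.83 times more in mtD2+. The log2 fold changes were 0.82 for Ccl3 (SE 0.20, edgeR adjusted p = 0.0519) and 0.73 for Ccl4 (SE 0.20, adjusted p = 0.0753).

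The outcome for these 2 genes depended on mouse 4 and on the settings. With all mice edgeR called Ccl3 under the 3 other scalings (adjusted p = 0.0441 to 0.0489), with no filter (0.00569) and with a filter at 1 CPM (0.0376), and Ccl4 with no filter (0.0119). Without mouse 4 edgeR called both, at log2 1.08 for Ccl3 (adjusted p = 0.00866) and 0.99 for Ccl4 (adjusted p = 0.0128). CC chemokines called higher were then 5 of 10, against 3.08% of all genes tested without that mouse. The Wald test of DESeq2 with all mice also called 5 of 10 higher, against 8.15% of all genes. With mouse 1, 2 or 3 left out, edgeR called Ccl2 alone, while 169, 192 and 120 genes were called higher over the whole table. Without the mouse block edgeR called Ccl2 alone (1 of 10, against 1.06% of all genes), with log2 0.66 for Ccl3 and 0.44 for Ccl4 (adjusted p = 0.337 and 0.692). Their ratio to each other hardly moved, since the log2 ratio of Ccl3 to Ccl4 was higher in mtD2+ by 0.13, 0.06, 0.08 and 0.09 in mice 1 to 4.

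**Figure D3:**
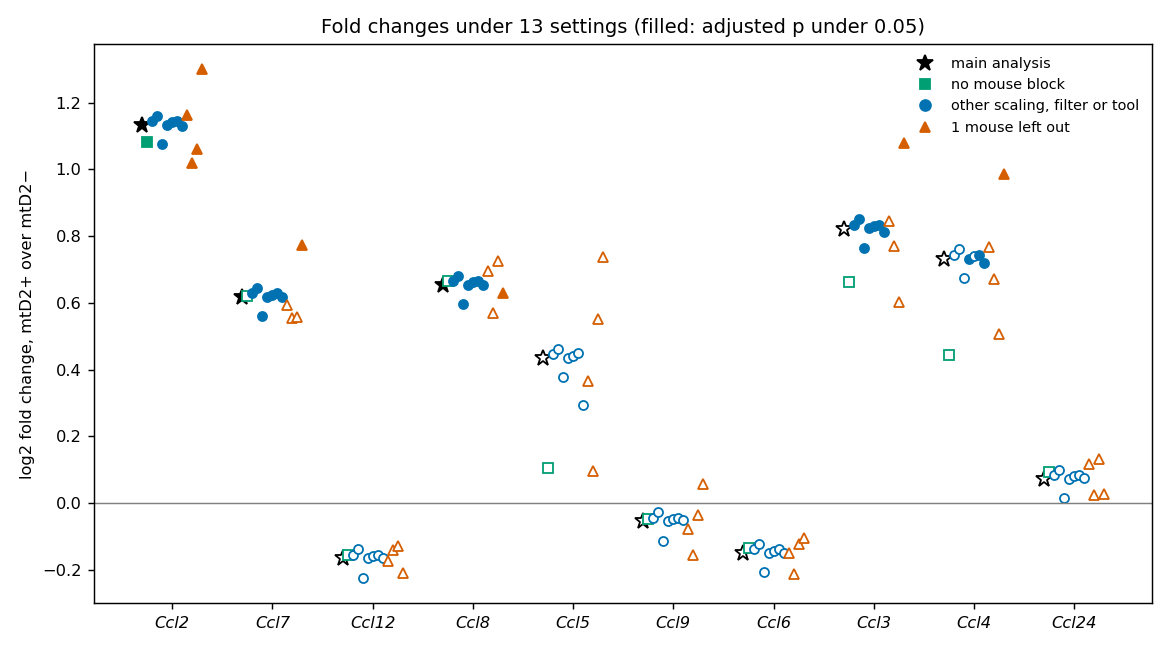
Log2 fold change of mtD2+ over mtD2- (y axis) for each gene (x axis) under the main analysis and 12 alternatives, filled where the adjusted p was under 0.05. Ccl2 was called in all of them, at 1.02 to 1.30, and Ccl12 and Ccl6 lay below 0 in all of them without a call.

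Ccl5, also called RANTES and best known from T and NK cells, was the least abundant member. Its levels were 33.6, 12.4, 17.2 and 110.4 CPM in mtD2- and 51.8, 34.8, 18.5 and 81.7 CPM in mtD2+. Both libraries of mouse 4 were the highest of their groups, and the spread among mice was larger than the difference between populations (8.88-fold from the lowest to the highest library). The log2 fold change was 0.43 (SE 0.27, edgeR adjusted p = 0.383). Of 10 T and NK cell markers, 4 were tested and 0 were called. Their summed level was 24.7 to 35.6 CPM in mtD2- and 25.0 to 43.5 CPM in mtD2+, nearly all of it Cd4, which macrophages can express too, while the mean of Cd3e was 0.682 CPM in mtD2- and 0.156 CPM in mtD2+. The part of such cells in the level of Ccl5 was not tested.

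The CCR1 ligands Ccl6 and Ccl9, which tissue macrophages make at rest, did not pass the test. Ccl6 stood at 1708, 1983, 1731 and 1582 CPM in mtD2- and at 1545, 2043, 1499 and 1295 CPM in mtD2+ (log2 -0.15, SE 0.10, edgeR adjusted p = 0.432). Ccl9 stood at 612.3, 567.2, 590.8 and 651.3 CPM in mtD2- and at 616.6, 674.4, 554.9 and 497.0 CPM in mtD2+ (log2 -0.06, SE 0.12, edgeR adjusted p = 0.834). Groups overlapped for both, and mouse 2 was the highest mtD2+ library of each. Ccl9 had the narrowest range of the 10 genes, 1.36-fold from the lowest to the highest library, followed by Ccl6 with 1.58-fold. The log2 ratio of Ccl9 to Ccl6 was higher in mtD2+ in 3 of 4 mice, by 0.09 ± 0.14 (SD, n = 4).

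Ccl24, the eosinophil chemoattractant also called eotaxin-2, differed between the populations by less than the spread between mice. It stood at 207.2, 219.9, 167.6 and 239.4 CPM in mtD2- and at 199.2, 255.3, 158.5 and 276.9 CPM in mtD2+ (log2 0.07, SE 0.11, edgeR adjusted p = 0.741). Mouse 3 was the lowest and mouse 4 the highest in both groups, so that the mice differed more than the populations. The 5 eosinophil markers summed to at most 1.51 CPM in mtD2- and 1.69 CPM in mtD2+, with Epx and Prg2 at 0 counts in all libraries.

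Levels of different genes were compared per length, in the deposited RPKM. In mtD2- the order of the means was Ccl4, Ccl8, Ccl2, Ccl7, Ccl3, Ccl6, Ccl12, Ccl9, Ccl24 and Ccl5. Neighbours from Ccl4 down to Ccl12 had overlapping ranges, Ccl12 (765 to 988 RPKM) was above Ccl9 (197 to 207), Ccl9 was above Ccl24 (138 to 183), and Ccl24 was above Ccl5 (13.9 to 105.9). In mtD2+ the mean of Ccl2 (range 3091 to 4000 RPKM) had passed that of Ccl8 (2605 to 3950), with overlapping ranges, and Ccl3 and Ccl7 came next at 1688 ± 332 and 1679 ± 265 RPKM. The share of Ccl2 in the summed RPKM of the 10 genes was 13.6 ± 2.13% in mtD2- and 19.7 ± 2.68% in mtD2+. The share of Ccl6 was 8.96 ± 3.32% and 5.17 ± 1.43%, and that of Ccl12 was 7.92 ± 2.27% and 4.58 ± 0.748% (SD, n = 4). In percentage points Ccl4 varied most from mouse to mouse, from 13.7 to 47.1% in mtD2- and from 21.2 to 40.9% in mtD2+, with mouse 4 highest in both.

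**Figure D4:**
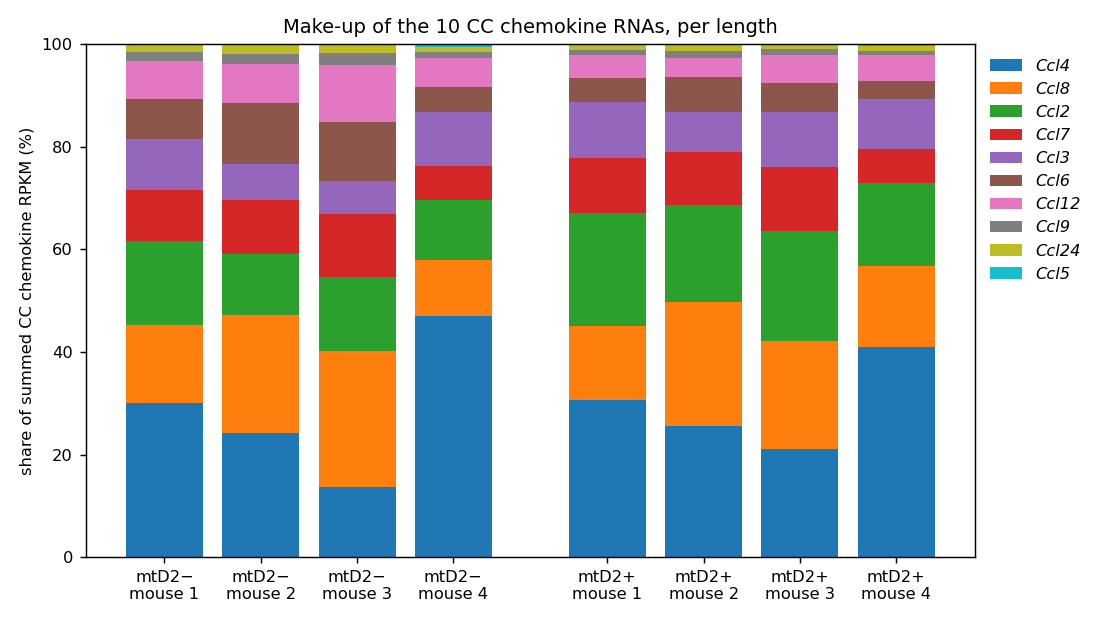
Share of each gene in the summed RPKM of the 10 CC chemokines (y axis, percent) in each library (x axis). Ccl4 took the largest share in both libraries of mice 1, 2 and 4. In mouse 3 the largest share was that of Ccl8 in mtD2- and of Ccl2 in mtD2+. The share of Ccl2 was 13.6% on average in mtD2- and 19.7% in mtD2+.

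The 10 genes together took 1.08, 0.896, 0.7999 and 1.37% of all counts in the mtD2- libraries of mice 1 to 4. In the mtD2+ libraries they took 1.54, 1.39, 1.24 and 1.57%. The summed level was higher in mtD2+ by log2 0.58, 0.76, 0.73 and 0.14, so the gain was smallest in mouse 4, whose mtD2- library already had the highest sum.

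AU-rich elements in the 3′ end shorten the life of many cytokine messages, and the pentamer ATTTA is their core. Counted on the sense strand after the stop codon of the longest protein-coding transcript, with overlaps, Ccl12 had 5 in 167 bases and Ccl3 had 5 in 409. Ccl4 had 2 in 302 bases, Ccl7 had 2 in 435 and Ccl2 had 1 in 275. Ccl8, Ccl5 and Ccl24 had 0. The median density was 1.28 per kb over 12150 tested genes, and 0.0576% and 0.502% of those genes were at least as dense as Ccl12 and Ccl3. The heptamer TATTTAT was in Ccl12, Ccl3 and Ccl4, 3 of 10 members, and in 29.2% of all these genes. Per kb, Ccl7 had 4.598 and Ccl2 had 3.64 pentamers, so that genes with and without them stood both among those that rose and among those that were not called.

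Among the receptor genes Ccr2 fell and Ccrl2 rose. Ccr2, the receptor of Ccl2, Ccl7 and Ccl12, stood at 610.9, 476.0, 518.7 and 522.9 CPM in mtD2- and at 342.4, 261.0, 307.6 and 370.4 CPM in mtD2+. The groups did not overlap, a pattern whose share over all genes was not counted in the lower direction. The gene fell by 0.74 on the log2 scale (SE 0.11, edgeR adjusted p = 0.00813), a call lost without mouse 1 or 3 (adjusted p of 0.0590 and 0.0615). Ccrl2, an atypical receptor that binds chemerin, rose from 549.0, 276.2, 258.9 and 771.8 CPM to 967.4, 748.1, 680.2 and 1029 CPM (log2 1.02, SE 0.17, adjusted p = 0.0142). Its groups overlapped through the mtD2- library of mouse 4, and its call was kept without mouse 4 (log2 1.22) and lost without mouse 1, 2 or 3 and without the block (log2 0.88, adjusted p = 0.179). Ccr1 stood at 0.38 (SE 0.13, adjusted p = 0.120). Of 14 receptor genes 7 were tested, with 1 higher and 1 lower, against 519 and 248 of all 13933 genes tested. The median of the 7 was 1.01. That median rests on genes near 0, since it was 0.0057 over the 4 receptors with at least 1 CPM in 4 libraries. Ccr3, the receptor of Ccl24, and Ccr8, the receptor of Ccl8, had at most 21 and 14 counts in a library and were not tested.

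Other CC chemokines were scarce. Of 14 further family members listed, 13 were in the tables, 5 passed the filter and 0 were called by edgeR, of which 1, Ccl22, had an unadjusted p under 0.05 and was called by DESeq2. Ccl22, a ligand of CCR4, stood at 17.4, 2.87, 9.25 and 17.8 CPM in mtD2- and at 35.1, 11.5, 11.9 and 21.3 CPM in mtD2+. Its log2 fold change was 0.88 (SE 0.30, edgeR adjusted p = 0.121), and it was higher in 4 of 4 mice, as were 16.3% of all genes tested. Ccl11, a ligand of CCR3 made by fibroblasts, stood at 8.20, 6.88, 0.463 and 40.2 CPM in mtD2- and at 3.46, 9.28, 0.753 and 6.90 CPM in mtD2+ (log2 -0.78, SE 0.53, adjusted p = 0.424), and Ccl25 at log2 0.91 (SE 0.60, adjusted p = 0.411). Ccl20, Ccl21a, Ccl21b and Ccl27b had 0 counts in all 8 libraries.

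Among 22 NF-kB pathway genes 7 rose and 0 fell, with a median of 0.40 (0.56 without mouse 4, where 9 rose). Of all genes tested 3.72% rose, and 3.08% without mouse 4. Rel, a subunit that drives cytokine genes, rose by 0.86 (SE 0.15, adjusted p = 0.0139), Birc3 by 0.78 (SE 0.11, adjusted p = 0.00768) and Nfkb1 by 0.58 (SE 0.10, adjusted p = 0.0160). Without mouse 1, 2 or 3 the list had 0, 1 or 0 calls, and without the block 1. Calls over all genes fell too, from 767 to 215, 273 or 166, and to 218 without the block. Of 10 tested genes of a cytokine list, Ifnb1 rose by 1.56 (SE 0.20, adjusted p = 0.00495), from 96.8 ± 50.2 to 269 ± 111 CPM. Its call was kept whichever mouse was left out and lost without the block (adjusted p = 0.0710). Il10 and Il1a stood at 0.86 and 1.35 (adjusted p = 0.0564 and 0.0708). Without mouse 4 the list had 4 calls. Of 10 interferon and STAT factors 2 rose and 0 fell, namely Stat3 by 0.91 (SE 0.10, adjusted p = 0.00323) and Irf1 by 0.78 (SE 0.18, adjusted p = 0.0442), with Irf3 at -0.50 (adjusted p = 0.0803), and the median was -0.21. The call of Irf1 was lost without the block and without mouse 1, 2 or 3.

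Among 10 regulators of message decay, 0 were called by edgeR with all mice and the main settings. Zfp36, which speeds the decay of AU-rich messages, stood at 0.75, Zc3h12c at 0.82 and Zfp36l2 at -0.43 (adjusted p = 0.0539, 0.0617 and 0.0847). Of 8 genes for glycosaminoglycan carriers and proteases of chemokines 0 were called, with Sdc4 at 0.66, Sdc3 at -0.41 and Mmp9 at -0.24 (adjusted p = 0.0612, 0.0545 and 0.247). At an unadjusted p under 0.05 edgeR had 6 of the 10, 3 of them lower, and 2 of the 8, 1 of them lower. The share of all genes at that level was not counted. DESeq2 called 3 and 2, and 1816 of all 13933 genes. In each of the 2 lists 1 of its calls was lower. Without mouse 4 edgeR called 2 and 1, all higher, against 3.08% of all genes tested. They included Zfp36 (log2 1.00, adjusted p = 0.00442) and Sdc4 (log2 0.88, adjusted p = 0.00473). With no filter edgeR called 2 and 1, and with the filter at 1 CPM 2 and 2. Calls over all genes were then 1051 and 935.

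In many lists, as in the sum of the chemokines, mouse 4 had the lowest ratio of mtD2+ to mtD2-. The summed NF-kB list was higher in mtD2+ by log2 0.57, 0.68 and 0.74 in mice 1 to 3 and stood at -0.04 in mouse 4, and the summed cytokine list by 1.06, 1.09, 1.26 and 0.05. Mouse 4 was also lowest for the receptors (0.11), the interferon and STAT factors (0.00092), the regulators of message decay (-0.04), the glycosaminoglycan carriers and proteases (-0.12), the other CC chemokines (-0.89) and the fibroblast markers (-2.49). A list of 16 immediate early and heat shock genes that respond to tissue dissociation had 5 genes that rose, among them Hsp90aa1 (0.82), Hspa8 (0.70) and Hspa1b (0.68), and 0 that fell. Of all genes tested 3.72% rose. The list had 0 calls without the block and 0, 2, 0 and 9 without mouse 1, 2, 3 and 4. Calls over all genes fell too, from 767 to 218 without the block and to 215, 273, 166 and 555 without mouse 1, 2, 3 and 4. The sum of the list stood at 0.45, 0.60, 0.48 and -0.06 in mice 1 to 4. It ran from 8286 to 16366 CPM in mtD2- and from 12587 to 15704 CPM in mtD2+, with the mtD2- library of mouse 4 highest of all. Of the 10 chemokines, Ccl2, Ccl3, Ccl4, Ccl5, Ccl6, Ccl7 and Ccl9 also had their smallest ratios in mouse 4, and Ccl8, Ccl12 and Ccl24 did not. The share of all genes with their smallest ratio in mouse 4 was not counted. The part of dissociation in the levels of the chemokines was not tested.

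**Figure D5:**
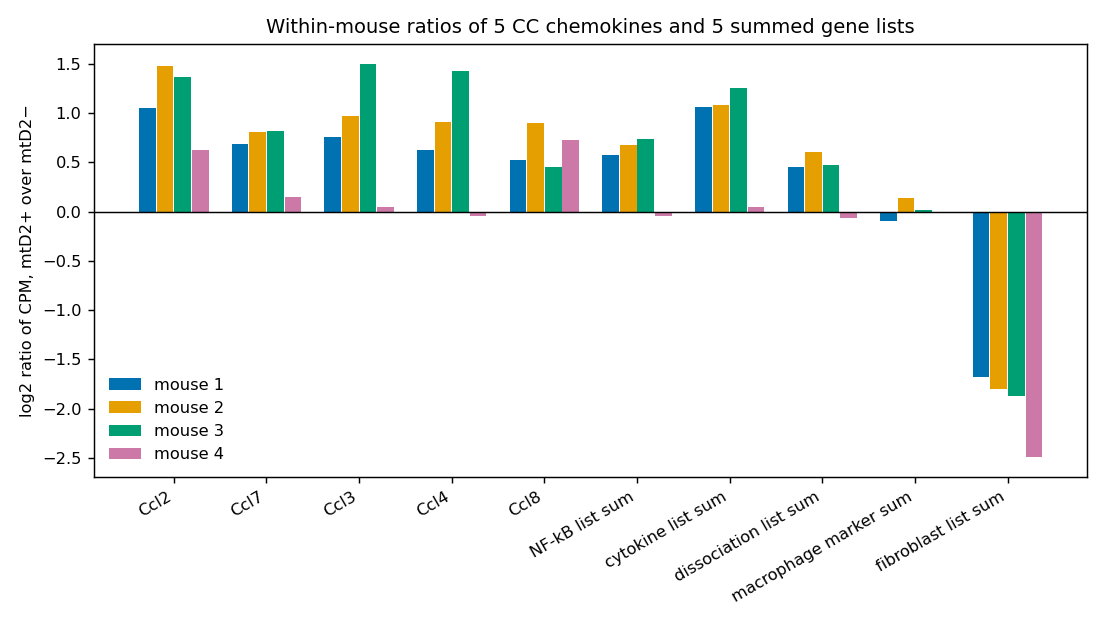
Log2 ratio of CPM, mtD2+ over mtD2- (y axis), in each mouse (bars) for 5 CC chemokines and 5 summed gene lists (x axis). Ccl3, Ccl4 and the NF-kB, cytokine and dissociation sums lay between -0.06 and 0.05 in mouse 4, where Ccl8 was at 0.72 and Ccl2 at 0.63.

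Fibroblast markers fell in the libraries where Ccl2, Ccl7 and Ccl8 rose. All 8 fibroblast and precursor markers were tested, and 6 fell and 0 rose, among them Col1a2 (log2 -2.56), Col1a1 (-2.51) and Col3a1 (-2.16). Of all 13933 genes tested 248 fell. Without the block 5 of the markers fell, and without mouse 1, 2, 3 and 4 the count was 5, 6, 5 and 5. Over all genes 71 fell without the block, and 46, 81, 46 and 123 without mouse 1, 2, 3 and 4. The sum of the 8 markers was 751 to 1314 CPM in mtD2- and 205 to 271 CPM in mtD2+. The 8 macrophage markers summed to 8017 to 8876 CPM in mtD2- and 8318 to 8808 CPM in mtD2+. Of the macrophage markers Mertk rose (log2 0.51, adjusted p = 0.0341) and Adgre1 fell. Mertk was higher in 4 of 4 mice, as were 16.3% of all genes tested. Its call was lost whichever mouse was left out, without the block and with library totals. Monocyte markers summed to 2165 to 3491 and 3029 to 4066 CPM, with 0 of 8 called. Nearly all of that sum was F13a1 (log2 0.29), which macrophages express too, while Ms4a4c and Vcan stood at -0.40 and -1.02 and the median of the list was -0.49. Neutrophil markers summed to at most 4.29 and 22.8 CPM, mast cell markers to at most 4.21 and 11.99 CPM and endothelial markers to at most 12.5 and 23.1 CPM. B cell markers summed to 742 to 822 CPM in mtD2- and 527 to 806 CPM in mtD2+, mostly Ighm, and Cd79b was the 1 of 5 tested that fell. Dendritic cell markers summed to 130 to 212 and 174 to 215 CPM and adipocyte markers to 85.2 to 150.4 and 101.0 to 225.5 CPM, with 0 called by edgeR in either list. At an unadjusted p under 0.05 edgeR had 0 monocyte, 0 T and NK cell, 1 dendritic cell, 2 adipocyte, 0 mast cell and 1 endothelial marker. Of these 0 were lower, and the share of all genes at that level was not counted. DESeq2 called 0, 0, 1, 2, 1 and 1, and 1816 of all 13933 genes. The part of these cells in the chemokine levels was not tested.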

How the data were processed

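RNA-seq of 8 libraries (4 mice, mtD2- and mtD2+ from each) was analysed from 1 table per library. The authors deposited raw counts per gene, CPM and RPKM. The submitters' processing notes name bcl2fastq, STAR 2.0.4b, Subread, featureCounts 1.45 and GRCm38, and the strand setting is not given in the sources used here. Of 41388 Ensembl identifiers 40254 had a symbol in GENCODE M21, and the rest held at most 0.48% of a library's counts.

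The deposited counts were tested with edgeR 4.0.16 (R 4.3.3) by the quasi-likelihood F test with TMM factors, filterByExpr (minimum count 10, total 15) and the mouse as a block. The pairing comes from the mouse named in the labels. Deviations of the libraries of 1 mouse from their group means correlated at 0.0385 to 0.251. In mouse 1 the value (0.0385) was below the highest with a library of another mouse (0.0582), and in mice 2, 3 and 4 it was above. SEs are the log2 fold change over the root of F. The deposited RPKM served only to compare genes, and the deposited CPM was not used in a test. Totals of 18462287 to 27464399 counts gave at least 329 counts for each chemokine in each library. The test was also run on simulated counts that had no differences between mice, so that run cannot check the block.

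Alternatives were no block, RLE, upper quartile or no factors, 2 other filters, DESeq2 1.42.0, limma 3.58.1 (voom) and leaving out each mouse. The members and lists were chosen with earlier results of these data known. Named were all 10 members, up to 3 tested genes with the smallest p from each list, and the gene most correlated with each member. Ccr3, Ccr7, Ccr8, Ackr1, Epx, Prg2 and family members at or near 0 counts were named as list members after their values were seen. One receptor of the list is not reported here and was left out of its counts.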

Additional observations from a re-analysis of the deposited data

How the results depend on the processing

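Genes called over the whole table numbered 767, and 3 of the 10 chemokines were among them. Without the replicate block there were 218 and 1, with DESeq2 1816 and 5. With no filter on low counts there were 1051 and 5, and with limma voom 1066 and 5. Leaving out 1 mouse at a time gave 166 to 555 genes and 1 to 5 chemokines, with 3 pairs left in each fit. Of 12 alternatives, Ccl2 was called in 12, Ccl7, Ccl8 and Ccl3 in 8 and Ccl4 in 4, and the other 5 chemokines in 0. Signs turned among the log2 fold changes without 1 mouse for Ccl9 (-0.16 to 0.056, above 0 without replicate 4), Ccl17 (-1.23 to 0.97, above 0 without replicate 3), Ccl27a (-0.0084 to 0.44, below 0 without replicate 2) and Ccr7 (-0.64 to 0.089, above 0 without replicate 4), none of them called. The cause was not tested. Other scaling moved the median of all genes by at most 0.06 on the log2 scale. Depth did not limit the 10 chemokines, but it left receptors and family members with few counts untested.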

Other observations

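The genes whose levels followed each chemokine most closely over the 8 libraries were found among 9362 genes by Pearson r of log2 CPM. The libraries share mice and the 2 populations, so the values are a description. Ccl4 was most like Tnf, the cytokine (r = 0.992), and Ccl3 most like Tnfsf9, the ligand of the costimulatory receptor 4-1BB of T cells (r = 0.989). Ccl2 was most like Sdcbp, which encodes syntenin-1, an adaptor of syndecans (r = 0.991), and Ccl7 most like Fbxo30 (r = 0.988). Ccl5 was most like Txnl4a (r = 0.989) and Ccl24 most like Cd63, a tetraspanin of lysosomes and exosomes (r = 0.978). The closest genes of the other members had lower values, with Ccl6 and Acad9 at 0.948, Ccl8 and Psma3 at 0.943, Ccl12 and Rasgrp1 at 0.941 and Ccl9 and Mid1ip1 at 0.935.

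Ackr1, an atypical receptor that binds many CC chemokines and marks venous endothelium, had 658 of its 667 counts in 1 library.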
